A study of Mus musculus with 6 samples.

Results

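The hypoxia and glycolysis genes are 38 mouse genes taken by symbol from the deposited table. They comprise the oxygen-sensing genes around the transcription factor HIF-1, genes that this factor is known to switch on, and the enzymes and transporters that carry glucose to lactate. All 38 symbols had a row, and Aldoa had 2 identifiers, which gave 39 entries of 26595 in the table. Expression was measured by poly(A) RNA sequencing in HT22 cells, an immortalised mouse neuronal line of hippocampal origin, labelled wild type. Cells given interleukin 17 (IL-17), a cytokine made mainly by T cells, provided 3 libraries, and cells without special treatment provided 3 control libraries. All were grown in DMEM with fetal bovine serum and antibiotics, and no change of oxygen is named in the labels; the labels give neither dose nor duration of IL-17. The study asked how JAK1-STAT6 signalling and IL-17 are related. Since the labels do not say whether the libraries came from separate cultures, p-values measure library-to-library spread only, part of which may be technical. In bulk RNA, fewer cells of a type and less RNA per cell cannot be told apart.

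In cells with enough oxygen, prolyl hydroxylases mark the HIF-1 alpha protein, made from Hif1a, and the marked protein is destroyed. When oxygen falls the protein persists, pairs with ARNT and raises transcription of genes for glucose uptake, glycolysis, lactate export, blood vessel growth and removal of mitochondria. Some inflammatory signals, NF-kB among them, are also known to raise Hif1a transcription. Neurons depend heavily on glucose, and glia are known to supply them with lactate.

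Values are FPKM, fragments per kilobase of transcript, scaled to the number of mapped fragments. FPKM times transcript length took values in steps, and if the main step is 1 fragment the depth was 15600000 to 16900000 fragments in IL-17 libraries and 16700000 to 17500000 in controls. The main step exceeded a smaller one by a factor of 2.0, and if that smaller step is 1 fragment the depth was higher by this factor. Of 10 neuronal markers 7 had a row and 2, Tubb3 and Ncam1, averaged at least 1 FPKM. The summed level of the 7 was 15.2 to 16.8 FPKM with IL-17, against 18.4 to 19.6 FPKM in controls, without overlap, and none was called. Tubb3 and Ncam1 each lay below the controls in every IL-17 library (log2 differences -0.25 and -0.27, limma adjusted p = 0.0928 and 0.148). Syn1, also tested, went the other way with overlap (log2 difference 0.15, limma adjusted p = 0.461). For Grin1, Map2, Rbfox3 and Syt1, too low to be tested, the groups overlapped. Tubb3, at a mean of 12.8 FPKM, made up most of the sum. Rbfox3, which marks mature neurons, was listed at 0 in 5 of 6 libraries, and Map2 averaged 0.242 FPKM, so defining markers of mature neurons were at or near 0. All 9 fibroblast and mesenchymal markers averaged at least 1 FPKM, and 1 of them, Vim, was called lower (log2 difference -0.30, limma adjusted p = 0.0334). Col1a1 also lay below the controls in every IL-17 library, whereas Thy1 and Pdgfra lay above them, without a call. For the others of that list the groups overlapped. Macrophage and leukocyte markers summed to 268.8 to 306.9 FPKM with IL-17, against 258.7 to 277.9 FPKM in controls, and red blood cell markers to 16.2 to 36.3 FPKM, against 18.1 to 21.3 FPKM. Of the 7 macrophage and leukocyte markers only 2 averaged at least 1 FPKM, Cd68 at 253.3 FPKM and Csf1r at 20.5 FPKM, so Cd68 made up most of that sum. Csf1r lay below the controls in every IL-17 library. Ptprc and Cx3cr1, at means of 0.899 and 0.0775 FPKM, lay above them, and the other markers of that list overlapped. Csf1r and Ptprc were not called, and Cx3cr1 was too low to be tested. Lung epithelial transcripts differed between the groups, with a summed level over 10 genes of 65.1 to 170.6 FPKM in IL-17 libraries, against 5.37 to 58.3 FPKM in controls. Sftpd, Scgb3a2 and Lamp3 of that list were listed at 0 in controls 1 and 2 and were above 0 in control 3. Scgb1a1 and Sftpc were the highest of the list, at means over all libraries of 34.7 and 17.8 FPKM. For Scgb1a1, Scgb3a2 and Napsa the groups overlapped, and Napsa averaged 4.39 FPKM with IL-17 and 4.65 FPKM in controls. Summed over 12 genes, liver transcripts came to 121.9, 15.4 and 24.0 FPKM in the IL-17 libraries, against 111.0, 93.5 and 61.7 FPKM in the controls. No tested gene of either list was called. The part of this material in the results below was not tested. All 3 IL-17 libraries held it, so leaving out a library does not remove the difference in lung transcripts between the groups.

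Of the members, 3 rose with IL-17: Bnip3, whose protein sits on mitochondria and marks them for removal, Egln3, an oxygen-sensing prolyl hydroxylase that is itself a HIF target, and Slc2a1, the main glucose transporter of most cells. The other 36 entries did not pass, and none fell. A gene was called at an adjusted p under 0.05, by limma across 12953 tested genes with Benjamini-Hochberg adjustment. All 39 entries were among the tested genes. The members were chosen with earlier results of these data known, so their counts beside all tested genes are no independent evidence. Called higher were 3 of 39 entries, where 1.95% of all tested genes were called in either direction and 0.95% were called higher, and called lower were 0 of 39, where 0.996% were called lower. At an unadjusted p under 0.05, 15 entries were higher and 0 lower, against 8.89% and 7.84% of tested genes. In 16 entries every IL-17 library lay above the controls, where 13.3% of tested genes did so, and in 1 every IL-17 library lay below, where 10.9% did. The median log2 difference was 0.09 over the members and 0.02 over all tested genes, and 34 of 39 entries were above 0, against 54.9% of tested genes. Each difference is IL-17 minus control on the log2(FPKM + 1) scale, on which changes of weakly expressed genes come out too small.

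**Figure D1:**
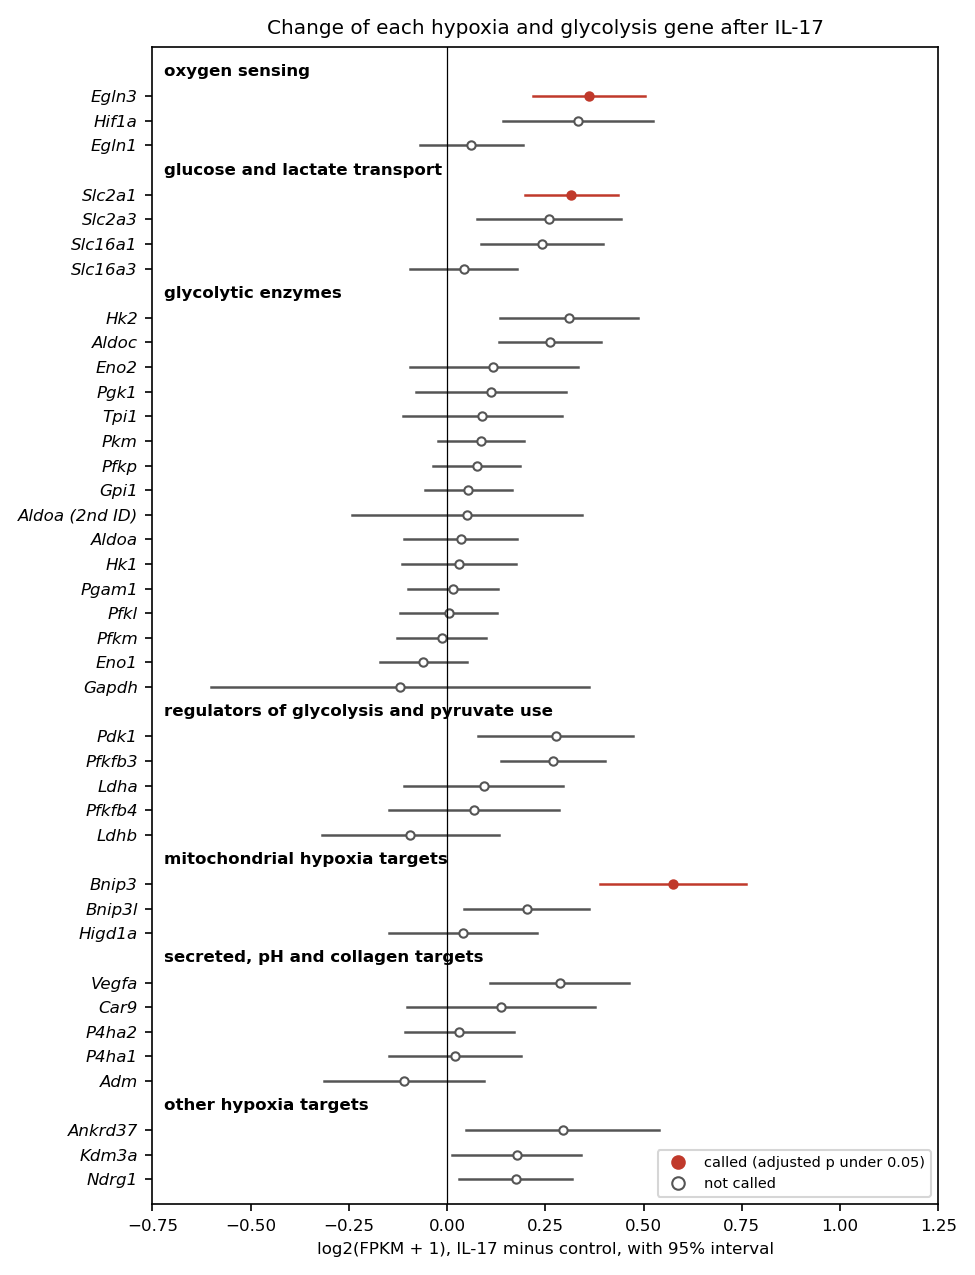
The log2 difference between IL-17 and control libraries (horizontal axis, log2(FPKM + 1)) is drawn for each of 39 entries with its 95% interval from limma, sorted within roles. Filled red points mark the 3 called genes, Egln3, Slc2a1 and Bnip3, while the intervals of 14 of the 16 glycolytic enzyme entries cross 0.

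Bnip3 (ENSMUSG00000078566, chromosome 7 from 138890836 to 138909519, minus strand, GRCm38) had 26.0, 25.9 and 29.9 FPKM in IL-17 libraries, against 18.1, 16.5 and 19.3 FPKM in controls. The groups did not overlap, and the library with the highest value was IL-17 3, which also had the highest summed lung level. Egln3 was highest in IL-17 3 too, whereas Slc2a1, also called, was lowest of its group there, as was Hif1a, which was not called. The means were 27.3 ± 2.27 FPKM with IL-17 and 18.0 ± 1.40 FPKM in controls (SD, n = 3 each), a log2 difference of 0.58 (SE 0.08, limma adjusted p = 0.0133). The call was lost without control 1 (limma adjusted p = 0.0591), without control 2 (0.0539) and with no filter on low values (0.0717). Without control 3 the difference was 0.63, and without both IL-17 1 and control 3 it was 0.66, with the call kept in both fits. In neither fit can IL-17 and the lung transcripts be told apart. Bnip3l, the related mitophagy receptor gene also called NIX, had 12.1, 13.0 and 11.9 FPKM with IL-17 and 10.0, 10.2 and 11.6 FPKM in controls. Its groups did not overlap either, but it did not pass (log2 difference 0.20, SE 0.07, limma adjusted p = 0.199). Higd1a, a mitochondrial inner membrane protein induced by hypoxia, had 15.6, 15.9 and 18.5 FPKM with IL-17, against 16.9, 16.6 and 14.9 FPKM in controls, and the groups overlapped.

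Egln3 (ENSMUSG00000035105, chromosome 12 from 54178981 to 54203860, minus strand) had 23.9, 23.5 and 25.1 FPKM in IL-17 libraries, against 17.8, 18.0 and 20.0 FPKM in controls. The groups did not overlap, with a log2 difference of 0.36 (SE 0.06, limma adjusted p = 0.0319). The call was lost in 9 of 18 alternatives, among them each IL-17 library left out (limma adjusted p = 0.06, 0.117 and 0.106 without IL-17 1, 2 and 3) and control 1 or 2 left out (0.0966 and 0.133). It was also lost with no filter (limma adjusted p = 0.0876), with TPM scaling (0.0614) and without both IL-17 1 and control 3 (0.0719). Egln1, the hydroxylase that does most of the oxygen-dependent marking of HIF-1 alpha, had 18.8, 19.0 and 19.3 FPKM with IL-17 and 17.2, 18.1 and 19.4 FPKM in controls. Those groups overlapped, with a difference of 0.06 and a 95% interval from -0.07 to 0.19. Hif1a (ENSMUSG00000021109) had 37.5, 35.1 and 33.8 FPKM with IL-17, against 24.8, 30.4 and 29.0 FPKM in controls. The groups did not overlap, yet Hif1a was not called (log2 difference 0.33, SE 0.08, limma adjusted p = 0.103). Array weights alone among 18 alternatives brought it past the threshold (limma adjusted p = 0.032, against up to 0.295 in the others). FPKM measure transcript, not the HIF-1 alpha protein whose stability oxygen controls.

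Slc2a1 (ENSMUSG00000028645, chromosome 4 from 119108711 to 119137983, plus strand) encodes GLUT1. It had 52.8, 52.6 and 52.2 FPKM in IL-17 libraries, against 40.6, 41.2 and 44.4 FPKM in controls. The IL-17 libraries lay close together and above all controls, with a log2 difference of 0.32 (SE 0.05, limma adjusted p = 0.0264). The call was lost in 9 of 18 alternatives, including each IL-17 library left out (limma adjusted p = 0.0574, 0.143 and 0.077 without IL-17 1, 2 and 3) and control 1 or 2 left out (0.0745 and 0.116). It was also lost with no filter (limma adjusted p = 0.0567), with TPM scaling (0.0593) and without both IL-17 1 and control 3 (0.087). Slc2a3, which encodes GLUT3, the transporter typical of neurons, was much lower in level, with 3.11, 2.93 and 3.10 FPKM in IL-17 libraries, against 2.35, 2.11 and 2.71 FPKM in controls, without overlap. Its difference of 0.26 did not pass (limma adjusted p = 0.165), and it overlaps the pseudogene Gm4482, at 3.62 FPKM, so its level is uncertain. Slc16a1, a lactate and pyruvate transporter gene (MCT1), had 21.6, 22.4 and 23.1 FPKM with IL-17 and 17.5, 18.4 and 20.5 FPKM in controls, without overlap and without a call (0.24, limma adjusted p = 0.134). Slc16a3, the lactate exporter gene MCT4, had 25.2, 24.3 and 22.2 FPKM with IL-17 and 22.7, 23.2 and 23.6 FPKM in controls, and the groups overlapped.

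Of the 3 called genes, each had its highest control value in control 3, the control library with the highest summed lung level, and that value stayed below every IL-17 value. Among the 15 entries with an unadjusted p under 0.05, control 3 was the highest control for 10. The same held for 37.9% of all tested genes. Of the 16 entries whose IL-17 values all lay above the controls it held for 10 (62.5%), against 43.1% of the 1718 tested genes with that ordering. The share among all tested genes with an unadjusted p under 0.05 was not taken. Without control 3, Bnip3, Egln3 and Slc2a1 were called, with log2 differences of 0.63, 0.41 and 0.35. The lung transcripts then stood high in every IL-17 library and low in both remaining controls, so IL-17 and this material cannot be told apart in that fit. Without both IL-17 1 and control 3, Bnip3 alone of the 39 entries was called. The lung sums left were 65.1 and 170.6 FPKM with IL-17, against 6.2 and 5.37 FPKM in controls. The liver sums were 15.4 and 24.0 FPKM with IL-17, against 111 and 93.5 FPKM in controls. IL-17 cannot be told apart from either material in that fit.

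**Figure D2:**
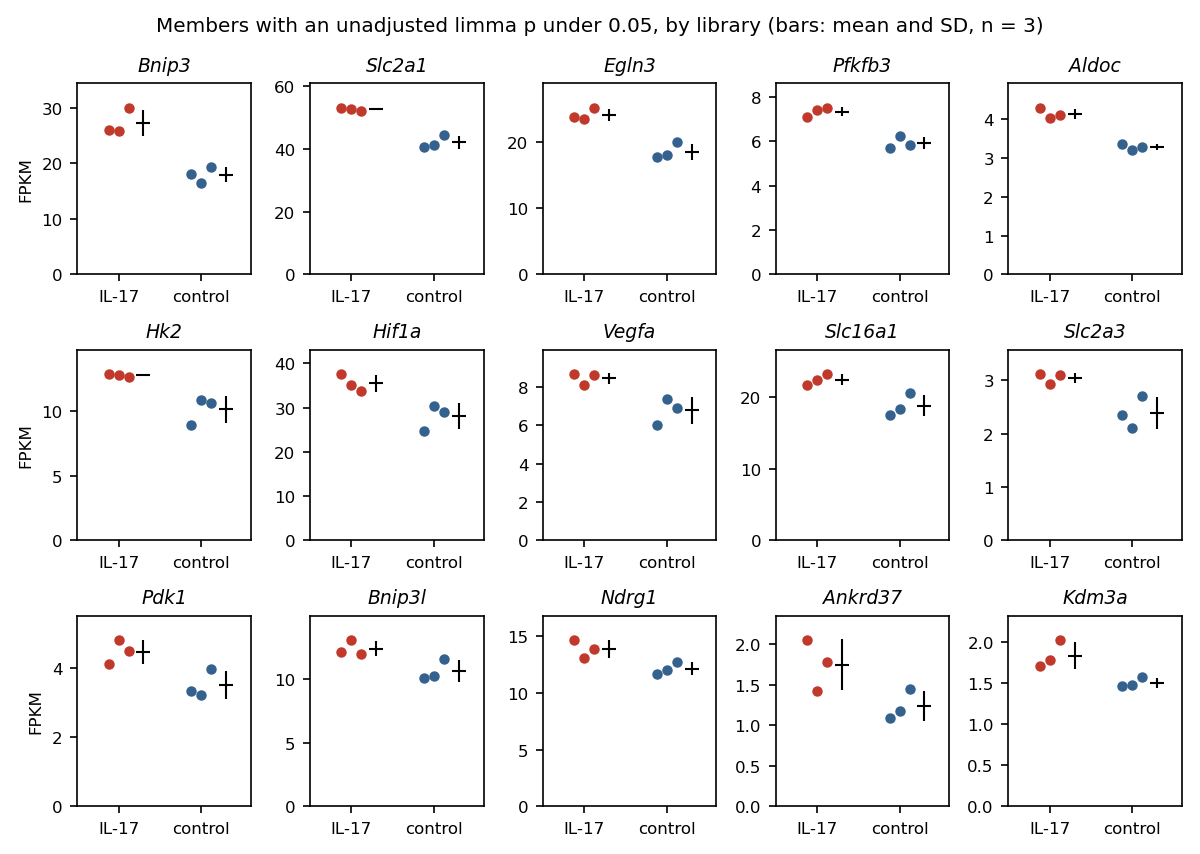
FPKM (vertical axes, each from 0) of the 15 members with an unadjusted limma p under 0.05 are plotted for 3 IL-17 libraries (red) and 3 control libraries (blue), with the mean and SD beside them. The groups overlap for Ankrd37 and for no other gene shown, and the lowest IL-17 library stands at 25.9 FPKM for Bnip3 and 52.2 FPKM for Slc2a1, where the highest control stands at 19.3 and 44.4 FPKM.

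Promoter windows are shown for the called genes, for Hk2, the glycolytic enzyme gene with the largest difference, and for Ldha, which holds the most matches of the members but did not pass. Each window runs from 250 bases before to 50 bases after a RefSeq start on GRCm38.p6, 5′ to 3′ on the gene's own strand. Capitals mark matches to the core of the HIF binding site, ACGTG or GCGTG, on either strand; CACGTG, the E-box read by other factors such as MYC, holds ACGTG on both strands and counts as 2 matches. The windows are chr7:138909457-138909756 (minus strand), chr4:119108495-119108794 (plus), chr12:54203825-54204124 (minus), chr6:82774405-82774704 (minus) and chr7:46845554-46845853 (plus).
Bnip3: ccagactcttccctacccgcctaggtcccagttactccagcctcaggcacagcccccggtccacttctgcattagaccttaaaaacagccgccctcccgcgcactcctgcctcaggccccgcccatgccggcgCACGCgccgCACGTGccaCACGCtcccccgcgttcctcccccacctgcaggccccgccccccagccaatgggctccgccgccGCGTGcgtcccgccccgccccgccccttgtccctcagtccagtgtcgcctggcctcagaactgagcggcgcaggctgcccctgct
Slc2a1: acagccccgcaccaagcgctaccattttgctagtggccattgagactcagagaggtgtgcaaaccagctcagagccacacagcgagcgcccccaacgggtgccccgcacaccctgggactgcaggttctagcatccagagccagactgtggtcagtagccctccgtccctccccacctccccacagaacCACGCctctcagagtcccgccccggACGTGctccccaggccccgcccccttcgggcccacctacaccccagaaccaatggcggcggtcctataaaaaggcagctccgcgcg
Egln3: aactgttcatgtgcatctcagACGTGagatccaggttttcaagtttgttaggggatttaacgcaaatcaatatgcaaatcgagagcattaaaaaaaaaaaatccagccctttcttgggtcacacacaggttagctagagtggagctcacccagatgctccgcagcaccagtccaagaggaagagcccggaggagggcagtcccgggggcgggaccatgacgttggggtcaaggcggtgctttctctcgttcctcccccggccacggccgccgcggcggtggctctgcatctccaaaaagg
Hk2: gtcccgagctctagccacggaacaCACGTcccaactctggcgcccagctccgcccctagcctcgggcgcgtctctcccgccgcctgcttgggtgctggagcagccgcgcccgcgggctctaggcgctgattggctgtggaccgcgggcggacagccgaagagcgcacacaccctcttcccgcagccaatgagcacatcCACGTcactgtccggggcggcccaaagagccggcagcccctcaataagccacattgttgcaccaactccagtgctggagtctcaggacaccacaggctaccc
Ldha: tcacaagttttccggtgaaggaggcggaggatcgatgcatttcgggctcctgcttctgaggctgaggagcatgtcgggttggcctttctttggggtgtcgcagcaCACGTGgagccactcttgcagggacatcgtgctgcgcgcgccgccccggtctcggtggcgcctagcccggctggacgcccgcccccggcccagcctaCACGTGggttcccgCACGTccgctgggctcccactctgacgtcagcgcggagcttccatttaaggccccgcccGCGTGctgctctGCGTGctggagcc
Bnip3 held 5 matches, Slc2a1 2, Egln3 1, Hk2 2 and Ldha 7. RefSeq windows matched 35 of the 38 symbols and gave 51 windows, since some genes have several starts; Bnip3l, Slc2a3 and Ndrg1 had none. ACGTG stood in 52.9% of the member windows and in 19.6% of all 32851 windows, and GCGTG in 56.9% and 32.4%. Either core was present in 78.4% of member windows and 43.8% of all windows. Many members were listed because they are known HIF targets, so these shares are no independent evidence. Some windows of a gene overlap, as for Eno1 and Aldoa, so the same site can count more than once. Member windows were richer in G and C, with a median of 62.0% against 52.7% in all windows, and the part of base composition in these shares was not tested. Among windows of glycolytic enzyme genes 18 of 25 held a match, and among those of the other members 22 of 26. A match describes letters in a window and is no measure of binding.

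The glycolytic enzymes, which split glucose to pyruvate, included some of the most abundant transcripts, and none of their 16 entries was called. Of these, 2 (12.5%) had an unadjusted p under 0.05, both higher, where 16.7% of all tested genes did in either direction and 8.89% were higher. Their median log2 difference was 0.05, against 0.02 for all tested genes. In level, among annotated entries with near-identical copies not counted, Pkm, pyruvate kinase, was highest at 1165, 1141 and 1128 FPKM with IL-17, against 1087, 1081 and 1069 FPKM in controls. Aldoa, the aldolase of muscle and most cells, averaged 747.1 ± 48.1 FPKM with IL-17 and 728.4 ± 19.1 FPKM in controls (SD, n = 3 each). Tpi1, triose phosphate isomerase, averaged 689.3 ± 38.8 FPKM with IL-17 and 649.6 ± 69.6 FPKM in controls. Their library values overlapped, so the order of this pair is not settled by these data. Eno1, enolase, Pgam1, phosphoglycerate mutase, and Pgk1, phosphoglycerate kinase, followed at means over all libraries of 527.4, 442.0 and 346.1 FPKM. The second Aldoa identifier (ENSMUSG00000114515) had 2.21, 1.97 and 3.13 FPKM with IL-17, against 2.06, 2.39 and 2.43 FPKM in controls, and was not called.

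Hk2, the inducible hexokinase, and Aldoc, the aldolase of brain, had the largest differences of the enzymes. Hk2 had 12.8, 12.8 and 12.6 FPKM in IL-17 libraries, against 8.94, 10.8 and 10.6 FPKM in controls, without overlap (log2 difference 0.31, SE 0.08, limma adjusted p = 0.0985). Aldoc had 4.27, 4.02 and 4.11 FPKM in IL-17 libraries, against 3.35, 3.21 and 3.29 FPKM in controls, also without overlap (0.26, SE 0.06, limma adjusted p = 0.07). Both passed in 1 of 18 alternatives, with array weights. Pkm also kept its groups apart, IL-17 above control by 0.09 (95% interval -0.02 to 0.20), though its difference was -0.017 after quantile normalization. Pfkp, the platelet-type phosphofructokinase, was also above control in all IL-17 libraries, by 0.08 (-0.04 to 0.19). The annotated span of Pfkp overlaps that of Pitrm1, on the opposite strand at a mean of 10.6 FPKM. Whether their exons overlap was not examined, so the level of Pfkp may be uncertain if strand was not used in counting. Hk1, the constitutive hexokinase, Gpi1, glucose phosphate isomerase, and the phosphofructokinases Pfkl and Pfkm had differences between -0.01 and 0.05, with overlap in each. Eno2, the enolase typical of neurons, averaged 4.90 ± 0.0764 FPKM with IL-17 and 4.47 ± 0.675 FPKM in controls (SD, n = 3 each), with overlap.

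Tpi1, Ldha and Pgk1 shared a pattern across libraries that did not follow the groups. Tpi1 had 645.1, 705.1 and 717.8 FPKM with IL-17 and 719.4, 580.1 and 649.3 FPKM in controls. Ldha, the muscle-type lactate dehydrogenase, had 670.4, 710.5 and 743.6 FPKM with IL-17 and 737.0, 591.0 and 670.5 FPKM in controls. Pgk1 had 323.2, 363.5 and 392.9 FPKM with IL-17 and 350.5, 312.5 and 334.1 FPKM in controls. In each of these genes control 2 was the lowest of the 6 libraries and IL-17 1 the lowest of its group.

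Gapdh, glyceraldehyde phosphate dehydrogenase, is a common loading control, and near-identical copies held most of its signal. The annotated gene averaged 121.4 FPKM, below Pgk1 at 346.1 FPKM and above Gpi1 at 115.8 FPKM. Gapdh (ENSMUSG00000057666) had 152.6, 83.8 and 116.6 FPKM in IL-17 libraries, against 144.4, 108.7 and 122.3 FPKM in controls. Its difference of -0.12 had the widest interval of the 39 entries, from -0.60 to 0.36. Matching of GENCODE transcripts found 77 other table entries at least 95% identical to Gapdh, 75 of them processed pseudogenes, which are intronless copies of an mRNA. These summed to 7555, 7164 and 6874 FPKM with IL-17, against 6960, 7355 and 7289 FPKM in controls, and overlapped. Gm13394 on its own averaged 1620 FPKM, and the annotated gene held 1.16% to 2.03% of the total, which averaged 7321 FPKM and exceeded the level of Pkm. With copies added, Gapdh differed by -0.003 (limma adjusted p = 0.986). The copies range from 285 to 1712 bases in length, and FPKM are scaled by each entry's own length, so the sum is no exact level of the gene, and how fragments were assigned among copies is not given in the sources used here.

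Other enzymes had fewer copies. Eno1 and 3 copies, mainly the pseudogene Gm4735 at 422.1 FPKM and the retrogene Eno1b at 290.1 FPKM, summed to 1251, 1232 and 1175 FPKM with IL-17 and 1256, 1290 and 1266 FPKM in controls. That sum also lay above Pkm in level. The annotated Eno1 held 41.9% to 42.7% of that sum, and had 532.68, 515.65 and 500.99 FPKM in IL-17 libraries, against 532.74, 542.62 and 540.01 FPKM in controls. Eno1 was the 1 member whose IL-17 libraries all lay below the controls, with IL-17 1 and control 1 nearly equal. Its difference of -0.06 was not called (limma adjusted p = 0.559). Pgam1 had 1 copy at 55.0 FPKM, Bnip3l 1 at 3.48 FPKM, and Bnip3 2 copies that averaged below 1 FPKM. With copies summed the same 3 genes were called as without, an alternative chosen after seeing the data. The 16 enzyme entries and Ldha took 1.361%, 1.32% and 1.345% of all FPKM in IL-17 libraries, against 1.298%, 1.272% and 1.317% in controls, without overlap. Counting the copies, they took 3.66%, 3.44% and 3.41% with IL-17, against 3.34%, 3.52% and 3.54% in controls, and the groups overlapped.

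**Figure D3:**
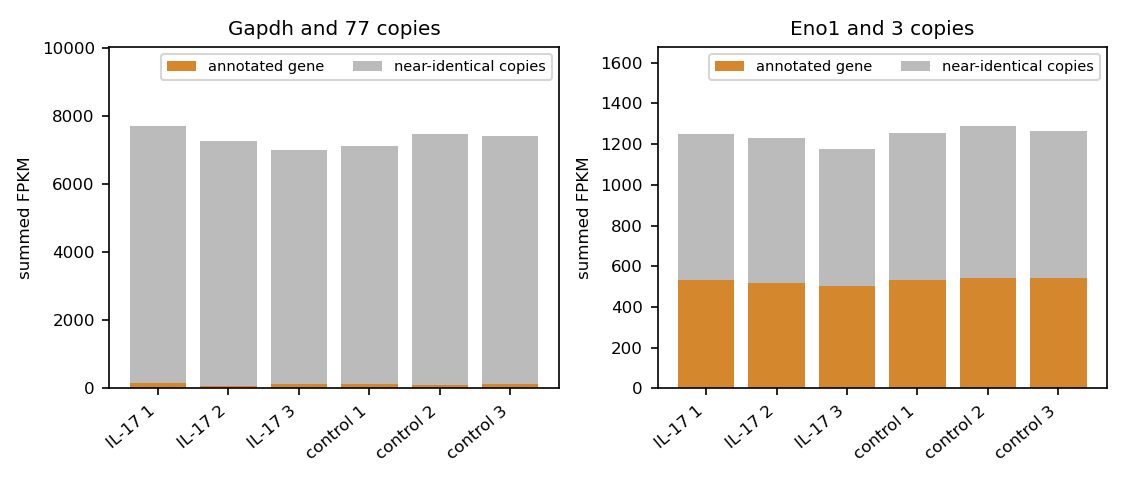
Stacked bars give the summed FPKM of the annotated gene (orange) and of its near-identical copies (grey) in each library, IL-17 libraries on the left, for Gapdh and for Eno1. The annotated Gapdh is a sliver of 83.8 to 152.6 FPKM under totals of 6990 to 7708 FPKM, while Eno1 holds 41.9% to 42.7% of its bars.

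None of the 5 genes that steer glycolysis and pyruvate use was called. Pfkfb3, which makes the activator of phosphofructokinase, had 7.11, 7.44 and 7.49 FPKM in IL-17 libraries, against 5.71, 6.23 and 5.83 FPKM in controls, without overlap (log2 difference 0.27, SE 0.06, limma adjusted p = 0.0657). Pdk1, the kinase that holds pyruvate out of the mitochondrion, had 4.09, 4.79 and 4.47 FPKM in IL-17 libraries, against 3.34, 3.21 and 3.96 FPKM in controls, without overlap (0.28, SE 0.08, limma adjusted p = 0.166). Pfkfb3 passed with array weights and Pdk1 in none of the 18 alternatives. Pfkfb4, a related enzyme, had 1.47, 1.42 and 1.93 FPKM with IL-17, against 1.33, 1.54 and 1.57 FPKM in controls. Ldhb, the heart-type lactate dehydrogenase, averaged 1.85 ± 0.209 FPKM with IL-17 and 2.04 ± 0.323 FPKM in controls (SD, n = 3 each), and for both genes the groups overlapped.

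Of the secreted, pH and collagen genes, Vegfa, the vessel growth factor, showed the largest difference. Vegfa had 8.66, 8.13 and 8.61 FPKM in IL-17 libraries, against 6.04, 7.39 and 6.92 FPKM in controls, without overlap and without a call (log2 difference 0.29, SE 0.08, limma adjusted p = 0.122). Adm, the vasodilator adrenomedullin, had 1.73, 1.32 and 1.77 FPKM with IL-17 and 1.74, 1.75 and 1.93 FPKM in controls. Car9, a carbonic anhydrase that is a sensitive hypoxia marker, was the lowest member, with 0.791, 0.803 and 1.14 FPKM in IL-17 libraries, against 0.65, 0.911 and 0.648 FPKM in controls. The groups overlapped for both. P4ha1, a catalytic subunit of collagen prolyl hydroxylase, had 30.3, 29.3 and 26.6 FPKM with IL-17, against 26.1, 29.3 and 29.7 FPKM in controls, and P4ha2, its relative, differed by 0.03, both with overlap.

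The remaining 3 hypoxia targets averaged higher with IL-17, and none was called. Ankrd37, an ankyrin repeat gene, had 2.05, 1.42 and 1.78 FPKM with IL-17 and 1.10, 1.17 and 1.45 FPKM in controls, which overlapped (log2 difference 0.29, limma adjusted p = 0.223). Ndrg1, a stress response gene, had 14.6, 13.1 and 13.9 FPKM with IL-17 and 11.6, 12.1 and 12.8 FPKM in controls (0.17, limma adjusted p = 0.221). Kdm3a, a histone demethylase, had 1.70, 1.78 and 2.02 FPKM with IL-17 and 1.47, 1.47 and 1.58 FPKM in controls (0.18, limma adjusted p = 0.264). Neither Ndrg1 nor Kdm3a overlapped between groups. Ankrd37 overlaps Ufsp2, on the opposite strand at 3.97 FPKM, and is uncertain if strand was not used.

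Set beside their related genes, Bnip3, Egln3 and Hk2 took a larger share in each IL-17 library than in any control. A share compares genes within a library and is free of the scaling between libraries. The shares of Bnip3 and Egln3 use the same values as their calls and are no separate evidence. How often shares separate in other gene families was not taken. Egln1 made up 44.1%, 44.8% and 43.5% of the summed Egln1 and Egln3 FPKM with IL-17, against 49.2%, 50.1% and 49.2% in controls, the rest being Egln3. Bnip3 made up 68.3%, 66.6% and 71.5% of Bnip3 and Bnip3l with IL-17, against 64.3%, 61.8% and 62.6% in controls. Hk1 made up 75.1%, 75.1% and 74.0% of the hexokinases with IL-17, against 79.5%, 78.4% and 77.7% in controls. These shares did not overlap between groups, nor did those of Pfkp and Aldoa, with differences of 0.61 and -0.10 percentage points. By exact permutation, two-sided, each of these 5 had p = 0.1, below which 3 libraries against 3 cannot go, and 0.26 after Benjamini-Hochberg adjustment over 13 shares, so no share could pass. Ldha made up 99.7% of lactate dehydrogenase FPKM in both groups on average, and Slc2a1 94.5% ± 0.18 of the glucose transporter pair with IL-17 and 94.6% ± 0.451 in controls (SD, n = 3 each).

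**Figure D4:**
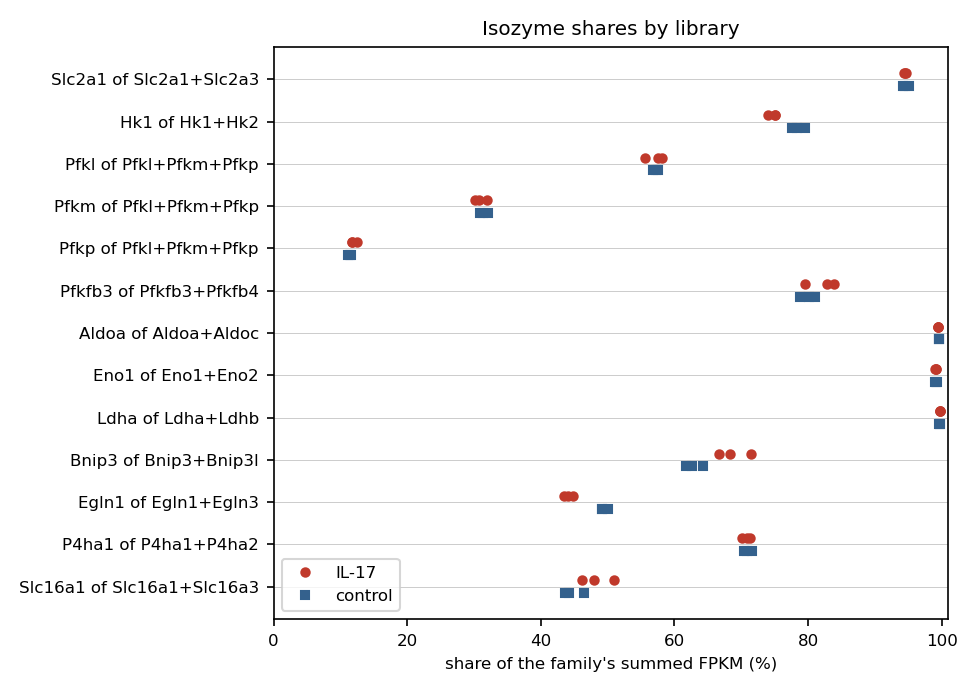
The share of each gene in its family's summed FPKM (horizontal axis, percent) is drawn per library, IL-17 as red circles above controls as blue squares. Circles and squares separate for Hk1, Pfkp, Aldoa, Bnip3 and Egln1, with mean differences of -3.79 points for Hk1, 5.88 for Bnip3 and -5.38 for Egln1.

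Further genes of the pathway were grouped by role, in lists chosen with earlier results of these data known. Their counts and medians beside those of all tested genes are therefore no independent evidence. Of 12 tested HIF subunits and regulators, Epas1, which encodes HIF-2 alpha, was called higher, 11 did not pass and the median difference was -0.005, against 0.02 for all tested genes. Epas1 had 1.98, 2.03 and 2.39 FPKM in IL-17 libraries, against 0.913, 0.964 and 1.35 FPKM in controls, without overlap (log2 difference 0.60, SE 0.10, limma adjusted p = 0.0319). The call was lost in 7 of 18 alternatives, among them each single library left out except control 3 (limma adjusted p from 0.0532 to 0.131). Epas1, which lung cells are known to express, was highest in IL-17 3 and, among controls, in control 3, as were the summed lung transcripts, whose part was not tested. Of 30 further tested hypoxia targets, 4 were called higher, 0 lower and 26 did not pass, where 0.95% of all tested genes were called higher and 0.996% lower. Their median difference was 0.19, against 0.02 for all tested genes. Hmox1, haem oxygenase, had 526.8, 491.1 and 468.2 FPKM in IL-17 libraries, against 257.3, 267.1 and 263.5 FPKM in controls (0.91, limma adjusted p = 0.000432). The others were Ddit4, an mTORC1 inhibitor (log2 difference 0.53, limma adjusted p = 0.00268), Mt1, a metallothionein (0.60, 0.00297), and Tfrc, the transferrin receptor (0.47, 0.00858). Tfrc was lost without IL-17 2 (limma adjusted p = 0.0573) and without both IL-17 1 and control 3 (0.0817). Hmox1 and Mt1 also respond to oxidants and metals, and Tfrc to iron.

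No gene was called in the lists for what glucose carbon can otherwise do. Of 7 pentose phosphate genes, Pgd, which makes NADPH, had 100.6, 101.6 and 96.5 FPKM with IL-17 and 85.1, 87.1 and 87.5 FPKM in controls (0.20, limma adjusted p = 0.082). Taldo1, transaldolase, differed by 0.11 (limma adjusted p = 0.313). Of 13 genes for pyruvate entry into mitochondria, Pdk4, another kinase of pyruvate dehydrogenase, differed by 0.33 (limma adjusted p = 0.0911) and Pdp2, its phosphatase, by 0.25 (0.147). The median difference was 0.10 in the pentose phosphate list and 0.09 in the pyruvate list.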

How the data were processed

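RNA from 3 IL-17 and 3 control libraries was sequenced after poly(A) selection with dUTP marking of second strands, and a SMARTER mRNA kit is also named, per the labels' protocols. The authors deposited one FPKM table with 26595 Ensembl identifiers. Fastp, StringTie, edgeR and build mm10 are named without role or version, per the submitters' processing notes; aligner, annotation release and use of strand are not given in the sources used here. GENCODE vM21 (GRCm38, the same assembly as mm10) gave symbols for 26525 identifiers and their coordinates.

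FPKM were used as deposited, as log2(FPKM + 1). Genes with a mean of at least 0.5 FPKM, 12953 of them, were tested with limma 3.58.1 (R 4.3.3, mean-variance trend, group as sole term) and Benjamini-Hochberg adjustment over all tested genes; 13642 were left out. Because FPKM are relative within a library, abundant transcripts can shift others. Shares within gene families were tested by exact permutation (scipy 1.17.1). Copies were found with blastn 2.17.0 (identity at least 95%, at least 200 bases, at least 50% of the copy). Depth was read from genes with 1 annotated transcript, whose values repeat at a step and at a smaller one that it exceeds by a factor of 2.0. No columns (0) were left out. The script was tested on simulated data.

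The members and lists were chosen with earlier results of these data known. All members could be named, with values per library for those called or with an unadjusted p under 0.05, for Hif1a and for the highest and lowest level in each role. Library values of Slc16a3, Tpi1, Pgk1, Gapdh, Eno1 and Adm were added after they were seen. Of each other list, up to 4 called genes, or the 2 of smallest p, are named. The alternatives changed pseudocount, filter, scaling, variance model, replicate block or libraries; summing copies was added after the data were seen.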

Additional observations from a re-analysis of the deposited data

How the results depend on the processing

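Over 18 alternatives, 0 members were called lower in any, and 27 of 39 entries kept their direction in all (Car9 in 17, since it was not tested with a filter of 1 FPKM). The members called higher were 3 in the fit reported, 0 with no filter, 1 with TPM scaling, 7 with array weights and 1 without both IL-17 1 and control 3; leaving out 1 library gave 0 to 3. With the replicate block 1 member, Bnip3, was called (Slc2a1 and Egln3 were lost, limma adjusted p = 0.169 and 0.114), and 80 of all tested genes (41 higher, 39 lower), but same-numbered libraries deviated from their group means with correlations of -0.144, 0.08 and 0.206, and the labels name no pairing, so the number was not taken as one. Of all tested genes 252 were called (123 higher, 129 lower), against 135 with no filter (63 higher, 72 lower), 1015 with array weights (497 higher, 518 lower), 160 without both libraries (71 higher) and 117 to 254 without 1 library (54 to 114 higher, 60 to 140 lower). In the pathway lists 5 were called higher, against 14 with array weights, 3 with the replicate block (Tfrc lost, limma adjusted p = 0.0826; Epas1 lost, 0.0521) and 3 to 5 without 1 library; called lower were 0, or 2 with array weights. The cause of these differences was not tested. Leaving out libraries lowers their number, and dropping the filter adds genes both to the adjustment and to the fitted variance trend.

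Log2 differences that changed sign were near 0 in the fit reported, at most 0.12 in size. With TMM scaling Pfkl became -0.018, Pgam1 -0.007 and P4ha1 -0.002; with quantile normalization Pfkm became 0.02, Pgam1 0 and Pkm -0.017. With array weights the second Aldoa entry became -0.095, Pfkfb4 -0.016 and P4ha1 -0.001. Without both libraries Pfkl became -0.021 and the main Aldoa entry -0.003, and the share of P4ha1 differed by 0.077 points. Leaving out 1 library, or both IL-17 1 and control 3, gave ranges of -0.015 to 0.074 for Hk1, -0.023 to 0.046 for Pfkl, -0.03 to 0.015 for Pfkm, -0.005 to 0.086 and -0.089 to 0.149 for the Aldoa entries, -0.339 to 0.101 for Gapdh, -0.004 to 0.051 for Pgam1, -0.018 to 0.13 for Pfkfb4, -0.034 to 0.082 for Higd1a, -0.037 to 0.071 for P4ha1 and -0.004 to 0.059 for P4ha2. For shares it gave -0.302 to 0.138 points for Slc2a1, -0.633 to 0.624 for Pfkl and -0.494 to 0.138 for P4ha1. With 3 libraries a group, Hif1a did not pass at this spread. No fragment counts were used here, so the counting error of low members such as Car9 is unknown.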

Other observations

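Isozymes of other tissues were also present. Of 21 such genes and glucose transporters 19 had a row and 10 were tested, and none was called; the 2 of smallest p were Eno3, the muscle enolase, and Slc2a6, a lysosomal transporter. Eno3 had 33.9, 34.3 and 37.1 FPKM in IL-17 libraries, against 48.0, 40.7 and 43.9 FPKM in controls, without overlap (log2 difference -0.32, limma adjusted p = 0.0774). Slc2a6 had 30.2, 29.9 and 25.7 FPKM in IL-17 libraries, against 31.9, 32.8 and 33.8 FPKM in controls (-0.20, limma adjusted p = 0.23).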
